A study of Homo sapiens with 6 samples.

Results

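The chaperone genes described here are 36 heat shock protein genes of the cytosol and the mitochondria, their cochaperones and 2 heat shock factors, chosen by name from the 62438 genes of the count table. They cover the HSP70 and HSP110 family with its J-domain partners and exchange factors, HSP60 with HSP10, HSP90 with its cochaperones, 1 small heat shock protein, the 8 subunits of the CCT chaperonin, and HSF1 and HSF2. RNA-seq was done on a breast cancer line labelled MDA-MB-453, in 3 si-N6AMT1 libraries transfected with an siRNA against the methyltransferase gene N6AMT1 and 3 si-CN libraries transfected with a scrambled siRNA. Both groups received 10 nM siRNA by lipid transfection for 48 h, and no other agent or allele is named for either. The comparison asks which mRNAs differ once N6AMT1 is silenced.

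Chaperones bind unfolded proteins and let them fold without clumping. HSP70 proteins hold short exposed stretches in a cycle driven by ATP, in which J-domain proteins deliver the client and exchange factors release it, and HSP90 then finishes kinases and hormone receptors with the help of cochaperones. In mitochondria, the HSP70 protein encoded by HSPA9 pulls imported chains inwards and the HSP60-HSP10 chamber folds them, whereas the CCT ring folds actin and tubulin in the cytosol. Heat shock factors switch on many of these genes when unfolded proteins build up, and cancer cells are known to carry high chaperone levels.

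Library totals ran from 19739247 to 21289740 estimated counts, and the 36 genes took 1.02% to 1.06% of them. N6AMT1 was at 6.93, 6.86 and 6.65 CPM (counts scaled to library size by TMM) in the si-CN libraries and 3.08, 3.53 and 2.93 in the si-N6AMT1 libraries (log2 fold change -1.10, SE 0.119, FDR 3.65e-07). The cell line label did not match all of its markers. Among the luminal markers, SPDEF had 1 to 6 counts in every library, KRT19 had 8 to 14 counts, and KRT8 and KRT18 were at 599.9 ± 4.92 and 461 ± 10.0 CPM (SD, n = 3) in si-CN. All 6 basal and mesenchymal markers were present, with KRT5 at 768 ± 16.7, KRT17 at 2848 ± 24.6 and VIM at 632 ± 5.33 CPM. KRT8, KRT18, KRT5, KRT14 and TP63 were 0.08 to 0.18 higher on the log2 scale in the si-N6AMT1 libraries. The basal and mesenchymal KRT17, VIM and CDH2 had an FDR above 0.05 (log2 fold changes -0.02, -0.03 and -0.05). So did the luminal KRT19, ERBB2, FOXA1 and XBP1 (0.04, -0.02, -0.02 and -0.005). The immune genes PTPRC and CD3E had at most 3 counts in any library. CD68, a lysosomal gene of macrophages and other cells, was higher (log2 fold change 0.50, SE 0.025, FDR 1.64e-12). The part of these markers in the chaperone results was not tested.

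All 36 chaperone genes passed the expression filter, and 15 differed between the groups. By edgeR's quasi-likelihood test, with the false discovery rate (FDR) under 0.05 over 17320 genes as the threshold for a call, 9 were higher in si-N6AMT1 (25.0%) and 6 were lower (16.7%). Among all genes tested, 9.78% were called higher and 11.5% lower. The libraries of the groups did not overlap for 13 members on the higher side and 7 on the lower side, against 16.8% and 18.0% of all genes. The changes were small. Member log2 fold changes (si-N6AMT1 over si-CN) ran from -0.22 for HSPA9 to 0.21 for HSPE1, with a median of 0.02 where the median of all genes was 0.00, and the median absolute change of all called genes was 0.18. In bulk RNA, a lower share of cells that express a gene and less of its RNA per cell cannot be told apart.

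**Figure D1:**
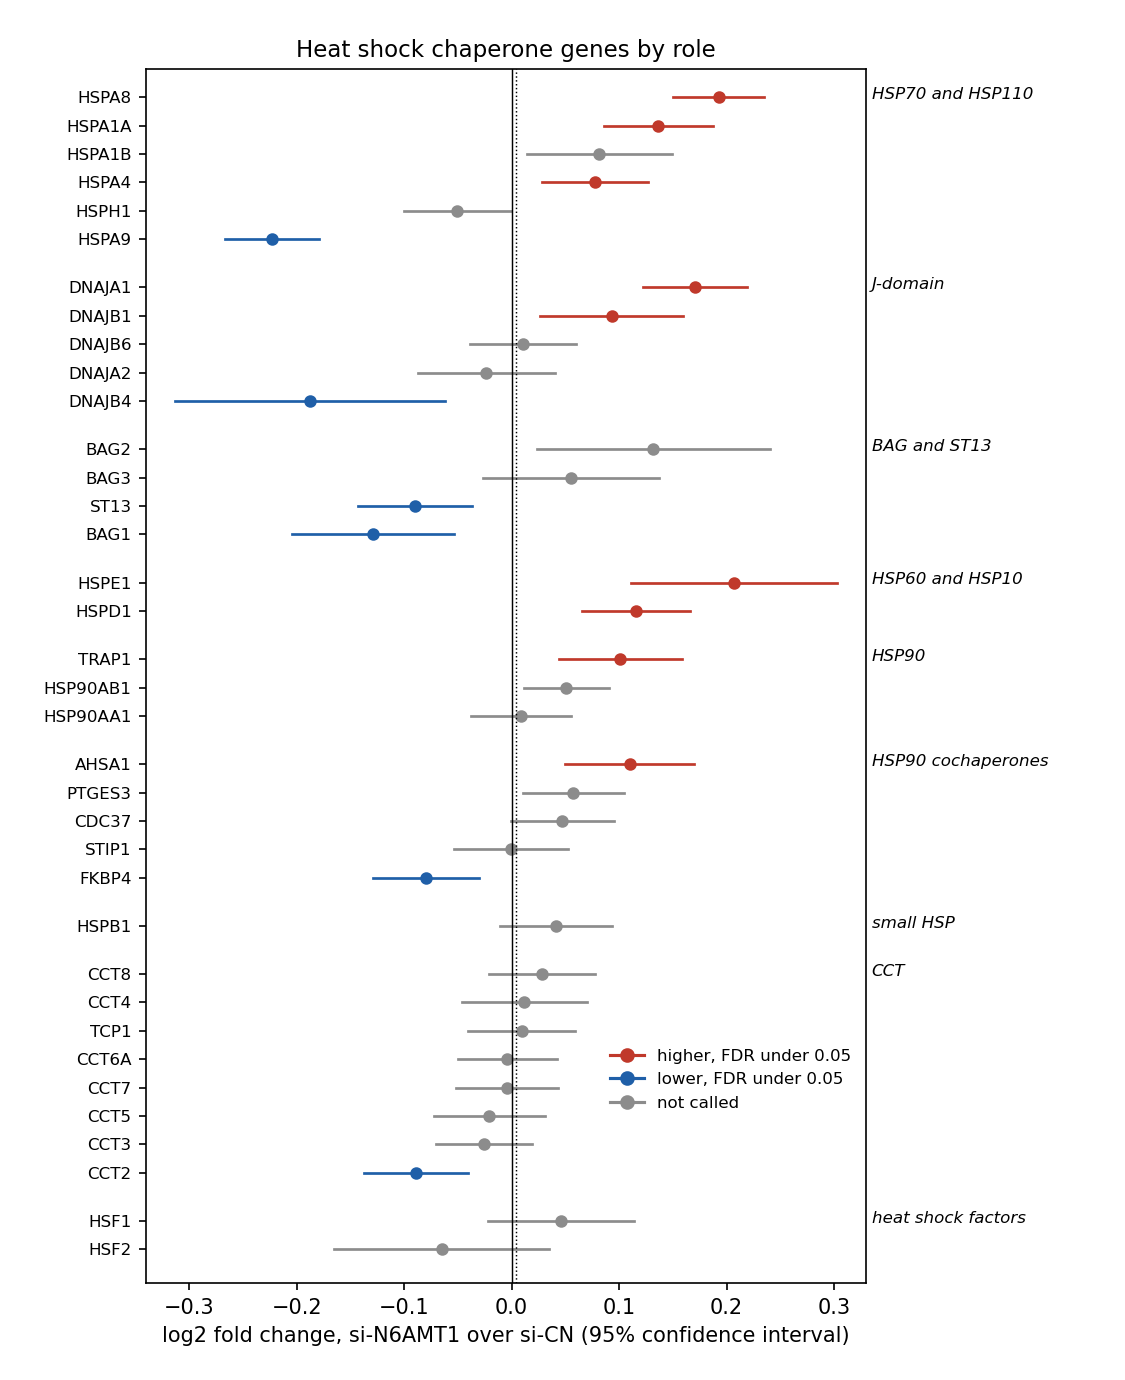
Log2 fold change of each of the 36 chaperone genes, grouped by role, with its 95% confidence interval from edgeR; red marks genes called higher, blue genes called lower and grey genes not called, and the dotted line is the median of all genes tested. The cytosolic and mitochondrial HSP70 genes HSPA8 and HSPA9 lie on opposite sides, at 0.19 and -0.22, while 7 of the 8 CCT subunits lie within 0.03 of 0.

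Of the 15 calls, 6 stood under each alternative that kept the threshold at no change: HSPA8, HSPA1A, DNAJA1, HSPD1 and HSPE1 on the higher side and HSPA9 on the lower side. The other 9 were lost under at least 1 alternative, although none changed direction. Of the 21 members not called, 4 were called higher under at least 1 alternative: HSPA1B, BAG2, HSP90AB1 and PTGES3. DESeq2 called 5 members higher and 3 lower. Only 3 members were called lower without si-N6AMT1 replicate 3 or without si-CN replicate 3, and 3 after a correction for transcript GC content. When edgeR tested against a fold change of 1.1 instead of 1, HSPA8 (FDR 0.0322) and HSPA9 (FDR 0.00197) were the members that passed.

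HSPA8, HSPA1A, DNAJA1 and HSPD1 hold binding letters of heat shock factors near their starts, as HSPA9, HSP90AA1 and HSP90AB1 do, so stretches from these promoters are given here to set the sequence beside the values that follow. Heat shock factors bind inverted repeats of the unit GAA, called heat shock elements. The motifs searched were GAANNTTC and TTCNNGAA, each equal to its own reverse complement, so that both strands are covered, and matches that start 5 bases apart were joined into arrays of 3 or more units. RefSeq promoters on GRCh38.p14, from 250 bases before to 50 after a listed start, were found for 32 of the 36 genes (not for HSF1, CCT6A, FKBP4 and ST13). In the lines below, capitals mark the matched letters, and all sequences read 5′ to 3′ on the gene's strand. The HSPA8 stretches are chr11:123062156-123062215 and chr11:123062327-123062386 on the minus strand, with arrays of 3 units 55 to 43 and 230 to 218 bases before the start. The DNAJA1 stretch is chr9:33025252-33025311 on the plus strand, with 3 units 3 to 15 bases after the start, and the HSPD1 stretch is chr2:197500031-197500090 on the minus strand, with 4 units 245 to 228 bases before the second of its 2 listed starts. The HSPA1A and HSPA1B stretches, chr6:31815410-31815469 and chr6:31827606-31827665 on the plus strand, each hold 2 units about 100 bases before the start (first matched base at 106 and 105 bases). HSPA9, at chr5:138575373-138575432 on the minus strand, has 2 units that span its start. HSP90AA1, at chr14:102087097-102087156 on the minus strand, has 3 units that begin 88 bases before its listed start at 102087044. The same stretch holds a further match of 2 units that begins 68 bases before that start. HSP90AB1, at chr6:44247807-44247866 on the plus strand, has 3 units that begin 112 bases before its listed start at 44247943. A second array of 3 units, not shown, begins 165 bases before that HSP90AB1 start. Both genes have other listed starts, whose windows held no match.
HSPA8 near: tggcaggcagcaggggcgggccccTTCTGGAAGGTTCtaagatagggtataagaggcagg
HSPA8 far: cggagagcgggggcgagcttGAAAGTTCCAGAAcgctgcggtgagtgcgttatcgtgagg
DNAJA1: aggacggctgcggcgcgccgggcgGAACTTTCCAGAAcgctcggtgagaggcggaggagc
HSPD1: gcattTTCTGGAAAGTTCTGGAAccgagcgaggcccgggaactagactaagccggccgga
HSPA1A: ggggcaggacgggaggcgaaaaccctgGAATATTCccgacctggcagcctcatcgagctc
HSPA1B: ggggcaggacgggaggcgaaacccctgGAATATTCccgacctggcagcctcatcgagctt
HSPA9: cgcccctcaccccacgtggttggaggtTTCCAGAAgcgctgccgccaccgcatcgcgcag
HSP90AA1: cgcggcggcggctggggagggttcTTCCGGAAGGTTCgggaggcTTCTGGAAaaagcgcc
HSP90AB1: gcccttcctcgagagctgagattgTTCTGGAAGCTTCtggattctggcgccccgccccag

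A match of at least 2 units lay in a promoter of 17 of the 32 genes (53.1%), against 1640 of 11714 tested genes with a promoter in the same table (14.0%). Arrays of 3 or more units lay in 6 of the 32 (18.8%) and in 0.495% of those tested genes. Matches were found among genes of each kind of call, in 5 of 9 genes called higher, 3 of the 4 genes called lower that had a promoter, and 9 of 19 genes not called. HSP90AA1, HSP90AB1 and DNAJB6 hold arrays of 3 units and were not called, and HSPE1, called higher, had no match in its window. These are matches of letters and no binding was measured.

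The HSP70 family was split between a higher cytosolic HSPA8 and a lower mitochondrial HSPA9. HSPA8 (ENSG00000109971, chr11:122928197-122933938, minus strand, GRCh37) encodes the constitutive cytosolic HSP70, HSC70. Its level was 698, 687 and 687 CPM in the 3 si-CN libraries and 776, 794 and 797 in the 3 si-N6AMT1 libraries. All si-N6AMT1 values lay above all si-CN values, and the increase was 14.3% (log2 fold change 0.19, SE 0.020, FDR 2.42e-07). HSPA9 (ENSG00000113013, chr5:137889445-137911364, minus strand, GRCh37) encodes mortalin, the HSP70 of the mitochondrial matrix. It was at 450.1, 447 and 443 CPM in si-CN and 387, 382 and 379 in si-N6AMT1. The groups were again separate, in the opposite direction, and HSPA9 fell by 14.3% (log2 fold change -0.22, SE 0.021, FDR 4.63e-08), the smallest FDR among the 36 genes.

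HSPA1A and HSPA1B encode the stress-inducible HSP70 from neighbouring copies on chromosome 6. HSPA1A (ENSG00000204389, chr6:31783320-31785723, plus strand, GRCh37) was at 155, 157 and 152 CPM in si-CN and 171, 169.8 and 169.8 in si-N6AMT1. Its groups were separate and the 3 si-N6AMT1 libraries lay within 1 CPM of each other (log2 fold change 0.14, SE 0.024, FDR 2.45e-04). HSPA1B was at 97.2, 107 and 99.2 CPM in si-CN and 108, 107 and 106 in si-N6AMT1. Replicate 2 of si-CN lay within the si-N6AMT1 range, and HSPA1B was not called (log2 fold change 0.08, SE 0.033, FDR 0.0818). Without that library HSPA1B was called (log2 fold change 0.12, FDR 0.00942). The copies share 76.9% of the 31-base words of the HSPA1A reference transcript, so the split of reads between them is an estimate. A long noncoding RNA gene, ENSG00000285565, overlaps HSPA1B on the same strand and had 14.6% of the counts of HSPA1B. Its counts are not part of the sum of HSPA1A and HSPA1B. Their sum was 252, 264 and 252 CPM in si-CN and 279, 277 and 276 in si-N6AMT1, and a fit of the sum as 1 gene gave a log2 fold change of 0.11 (edgeR FDR 0.00103).

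HSPA4 and HSPH1, of the HSP110 family, act as nucleotide exchange factors of HSP70. HSPA4 was at 181, 182 and 182 CPM in si-CN and 189, 194 and 192 in si-N6AMT1. The groups were separate but close (log2 fold change 0.08, SE 0.024, FDR 0.0222), and the call was lost without si-N6AMT1 replicate 2 or 3 and without any 1 of the si-CN libraries, at log2 fold changes of 0.07 to 0.09 over the 6 fits that each left out 1 library. DESeq2, the fit without an expression filter and the replicate block also lost it. HSPH1 was at 239, 243 and 237 CPM in si-CN and 237, 228 and 229.8 in si-N6AMT1, with overlapping groups (log2 fold change -0.05, SE 0.024, FDR 0.148).

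**Figure D2:**
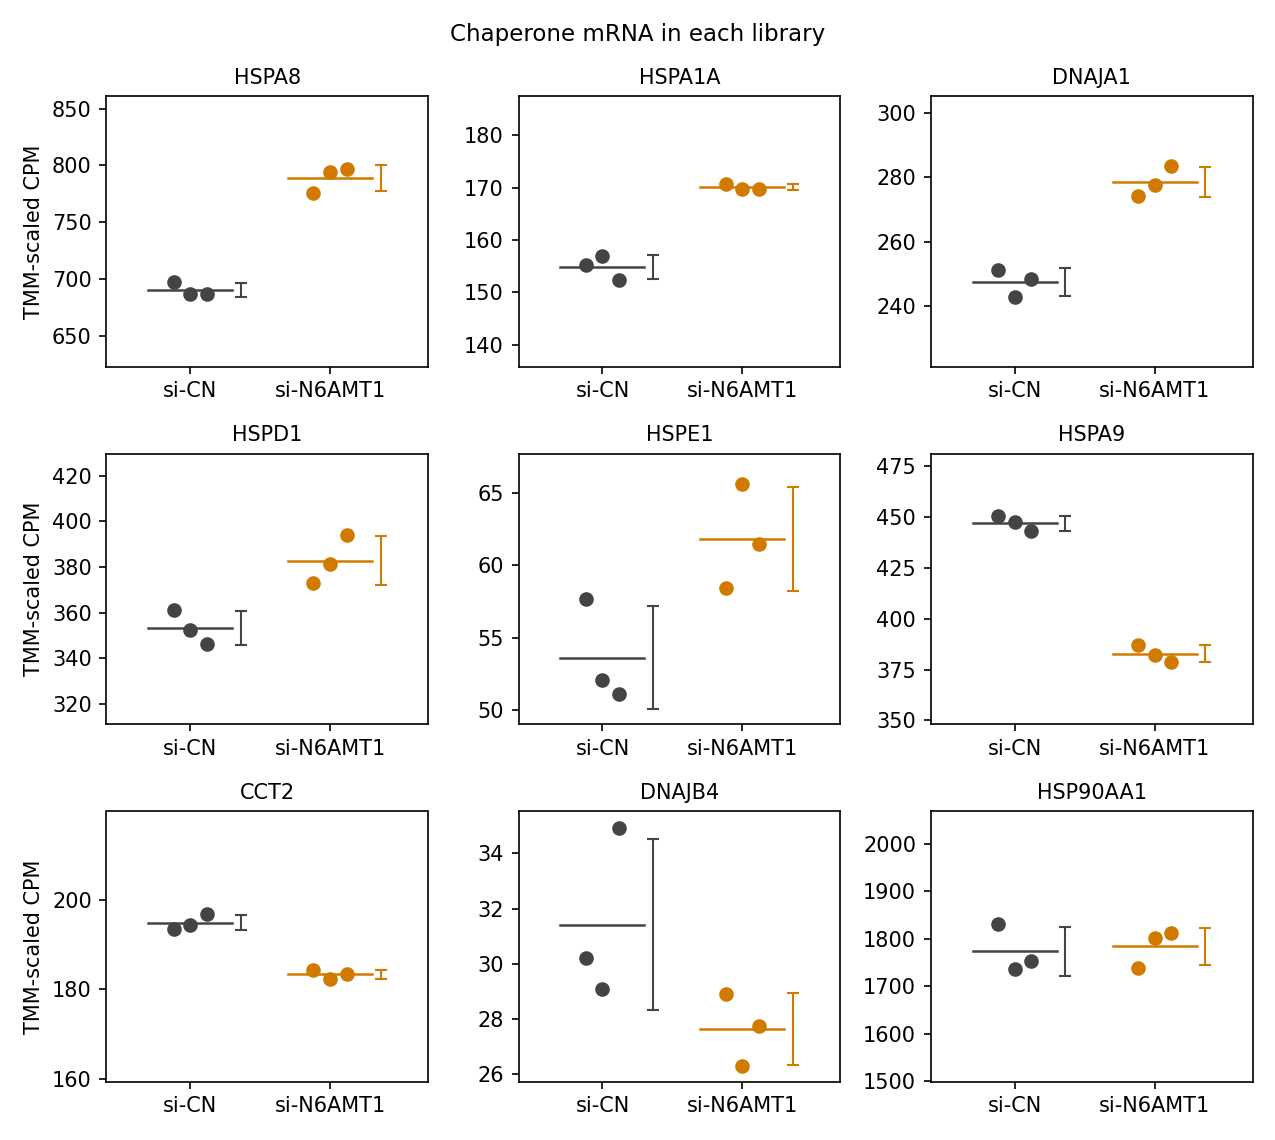
TMM-scaled CPM of 9 chaperone genes in each library (points), with the group mean (line) and SD (bar at the right), n = 3 per group; each vertical axis covers 16% either side of the midpoint of its gene and does not start at 0. The si-N6AMT1 values of HSPA8 (776 to 797) lie above si-CN (687 to 698), those of HSPA9 (379 to 387) lie below si-CN (443 to 450.1), and the HSP90AA1 groups overlap.

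Among the J-domain genes, which encode the partners that hand clients to HSP70, DNAJA1 and DNAJB1 rose and DNAJB4 fell. DNAJA1 (ENSG00000086061, chr9:33025271-33039905, plus strand, GRCh37) encodes a main cytosolic partner of HSPA8. It was at 251, 243 and 248 CPM in si-CN and 274, 278 and 284 in si-N6AMT1. The groups were separate and the gene was 12.6% higher (log2 fold change 0.17, SE 0.023, FDR 9.08e-06). Its relative DNAJA2 was at 96.8, 92.3 and 91.5 CPM in si-CN and 90.4, 92.6 and 92.9 in si-N6AMT1, with overlap (log2 fold change -0.02, SE 0.031, FDR 0.654). The ratio of DNAJA1 to DNAJA2, from counts divided by reference transcript length, was 3.43 ± 0.0821 in si-CN and 3.93 ± 0.0341 in si-N6AMT1 (SD, n = 3 each).

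DNAJB1, which encodes HSP40, was at 79.8, 79.2 and 76.0 CPM in si-CN and 83.2, 81.9 and 85.3 in si-N6AMT1 (log2 fold change 0.09, SE 0.032, FDR 0.0411). The groups did not overlap, though the FDR was near the threshold. The call was lost without si-N6AMT1 replicate 1 or 3 and without si-CN replicate 2 or 3 (log2 fold changes 0.07 to 0.11 with 1 library left out), and under DESeq2, the replicate block, no expression filter and the GC correction. The annotation of DNAJB1 overlaps TECR on the other strand, and TECR had 111% of the counts of DNAJB1. The DNAJB1 reference transcript shares 31-base words, on either strand, with 1 other gene, the pseudogene DNAJB1P1 (7.87%), and so none with TECR. Other DNAJB1 transcripts were not compared. The strand option of the counting is not given in the sources used here. Reads from overlapping genes may thus not be told apart where their transcripts share sequence.

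DNAJB4, which encodes a J-domain protein much like HSP40, had the widest error of the called genes. Its values were 30.2, 29.1 and 34.9 CPM in si-CN and 28.9, 26.3 and 27.7 in si-N6AMT1. Replicate 3 of si-CN stood above the other si-CN libraries, and the gap between the groups was less than 1 CPM (log2 fold change -0.19, SE 0.061, FDR 0.0299). Without that library the log2 fold change was -0.10 (FDR 0.284), and the call was also lost without si-N6AMT1 replicate 2 (log2 fold change -0.15) or 3 (-0.19), under DESeq2 and after the GC correction. DNAJB6, known to hold back aggregates of polyglutamine proteins, was at 168, 172 and 169 CPM in si-CN and 171, 172 and 169.9 in si-N6AMT1 (log2 fold change 0.01, SE 0.024, FDR 0.815). Its 95% confidence interval for the log2 fold change, -0.04 to 0.06, bounds the change on both sides.

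BAG proteins release clients from HSP70, and ST13 (HIP) holds the client-bound state and links HSP70 to HSP90. BAG1 was at 75.6, 78.5 and 77.4 CPM in si-CN and 66.4, 72.0 and 73.2 in si-N6AMT1. Replicate 1 of si-N6AMT1 was the lowest library, the groups did not overlap and BAG1 fell by 8.53% (log2 fold change -0.13, SE 0.036, FDR 0.0129). Without that replicate the log2 fold change was -0.09 (FDR 0.0976). The call was also lost without si-CN replicate 2 or 3 (log2 fold changes -0.12 and -0.12) and under DESeq2.

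ST13 was at 267, 259.6 and 268 CPM in si-CN and 245, 258 and 243 in si-N6AMT1, where replicate 2 came within 2 CPM of the lowest si-CN library (log2 fold change -0.09, SE 0.026, FDR 0.0135). The call was lost without si-N6AMT1 replicate 1 or 3, without si-CN replicate 3 (log2 fold changes -0.07 to -0.12 with 1 library left out) and after the GC correction (-0.05, FDR 0.166). BAG2, an inhibitor of the ubiquitin ligase that works with HSP70, was at 29.4, 29.5 and 29.0 CPM in si-CN and 30.7, 34.8 and 30.8 in si-N6AMT1. The groups did not overlap, but BAG2 missed the threshold (log2 fold change 0.13, SE 0.052, FDR 0.0782). Its reference transcript shares 42.5% of its 31-base words with RAB23, which lies across it on the other strand. BAG3, a stress-induced member that directs clients to autophagy, was at 61.6, 65.6 and 68.0 CPM in si-CN and 70.8, 66.0 and 66.3 in si-N6AMT1, with overlap (log2 fold change 0.06, SE 0.039, FDR 0.371).

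The chaperonin pair of the mitochondrial matrix was higher in si-N6AMT1, in contrast to the matrix HSP70 gene HSPA9. HSPD1 (ENSG00000144381, chr2:198351308-198381461, minus strand, GRCh37) encodes HSP60, the chamber. It was at 361, 352 and 346 CPM in si-CN and 373, 381 and 394 in si-N6AMT1. The groups were separate (log2 fold change 0.12, SE 0.024, FDR 0.00118). HSPE1 (ENSG00000115541, chr2:198364864-198368173, plus strand, GRCh37) encodes HSP10, the lid. It was at 57.7, 52.1 and 51.1 CPM in si-CN and 58.4, 65.6 and 61.4 in si-N6AMT1. Replicate 1 of si-CN, the highest control, lay within 1 CPM of replicate 1 of si-N6AMT1, and the increase was 15.4% with a wide error (log2 fold change 0.21, SE 0.046, FDR 0.00207).

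HSPD1 and HSPE1 lie head to head, and the shortest distance between their RefSeq starts is 105 bases on GRCh38.p14. Their GRCh37 annotations overlap on opposite strands, where HSPE1 had 15.7% of the counts of HSPD1. Reads of the pair may not be told apart where their transcripts share sequence. Their reference transcripts share 50.9% and 55.0% of their 31-base words with other genes, mostly pseudogenes and, for HSPE1, the read-through gene HSPE1-MOB4. The named pseudogenes held little of the signal. The 18 HSPD1 pseudogenes had 56 counts over the 6 libraries, 0.125% of those of HSPD1, and the 26 HSPE1 pseudogenes had 37, or 0.529% of those of HSPE1.

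The ratio of HSPA9 to HSPD1 used counts divided by reference transcript length. It was 0.635, 0.647 and 0.652 in si-CN and 0.529, 0.511 and 0.490 in si-N6AMT1. Each si-N6AMT1 ratio lay below every si-CN ratio, a mean difference of -0.34 on the log2 scale. This follows from the opposite separations of HSPA9 and HSPD1, so a permutation test was bound to give its smallest p and adds no support. An exact two-sided permutation test gave p = 0.1, the smallest that 3 against 3 libraries allow, and 0.16 after Benjamini-Hochberg adjustment over the 8 ratios computed. The ratio of HSPE1 to HSPD1 was 0.611 ± 0.0280 in si-CN and 0.651 ± 0.0367 in si-N6AMT1 (SD, n = 3), with overlapping libraries. The same lengths apply in both groups, so they cancel in the comparison between groups. The ratios depend on the transcripts chosen and are not used to compare the levels of 2 genes.

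**Figure D3:**
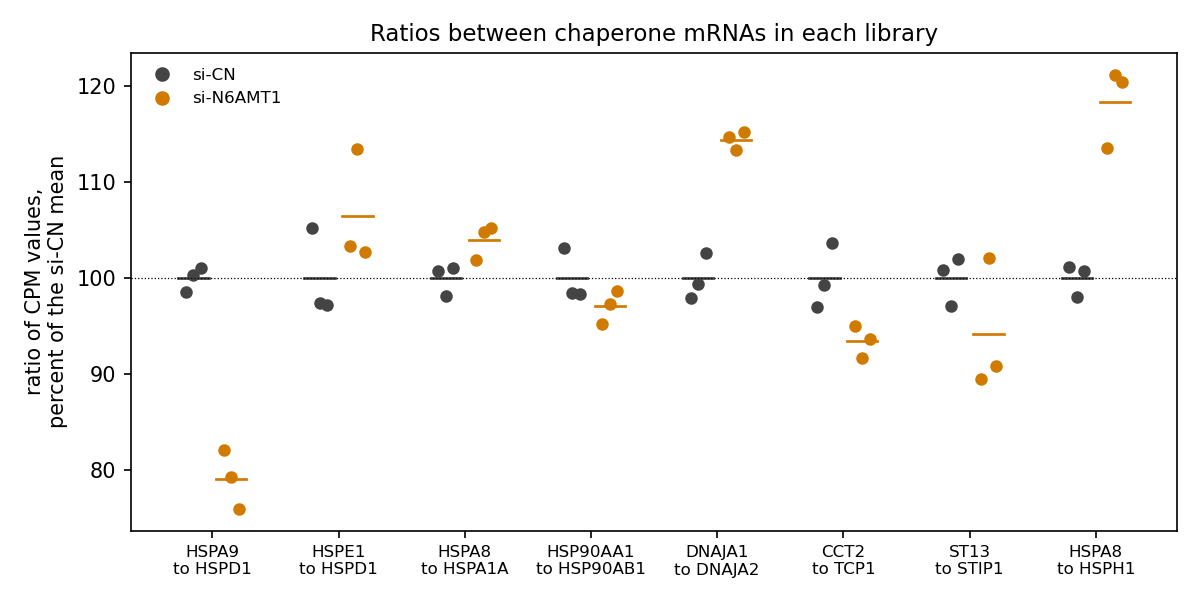
Ratios between 8 pairs of chaperone genes in each library, as a percentage of the si-CN mean ratio. Points are libraries, short lines group means, n = 3 per group, and the vertical axis does not start at 0. The ratio of HSPA9 to HSPD1 shows the widest gap. From counts divided by reference transcript length, its mean was 0.645 in si-CN and 0.510 in si-N6AMT1. The ratios of HSPE1 to HSPD1, HSP90AA1 to HSP90AB1 and ST13 to STIP1 overlap between the groups.

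Of the HSP90 genes, the mitochondrial TRAP1 was higher and the cytosolic pair was not called. TRAP1 was at 121, 127 and 126 CPM in si-CN and 134, 131 and 136 in si-N6AMT1, with separate groups (log2 fold change 0.10, SE 0.028, FDR 0.0102). The call was lost without si-N6AMT1 replicate 3 or si-CN replicate 1 (log2 fold changes 0.08 to 0.11 with 1 library left out), under DESeq2 and after the GC correction (0.07, FDR 0.0770). Its reference transcript shares 31.2% of its 31-base words with DNASE1, which lies across it on the other strand and had 13.8% of its counts.

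HSP90AA1, the stress-inducible cytosolic HSP90, was at 1831, 1735 and 1753 CPM in si-CN and 1739, 1801 and 1812 in si-N6AMT1. The groups overlapped, and its 95% confidence interval for the log2 fold change was -0.04 to 0.06 (log2 fold change 0.01, SE 0.022, FDR 0.839). HSP90AB1, the constitutive form, was at 1054, 1046 and 1058 CPM in si-CN and 1083, 1098 and 1089 in si-N6AMT1. These groups did not overlap, yet the gene missed the threshold (log2 fold change 0.05, SE 0.019, FDR 0.0632).

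The 5 HSP90 cochaperones went different ways. AHSA1, which speeds up the ATPase of HSP90, was at 96.3, 101 and 101 CPM in si-CN and 106, 109 and 106 in si-N6AMT1. The groups were separate and AHSA1 was 7.90% higher (log2 fold change 0.11, SE 0.029, FDR 0.00826), a call that was lost under DESeq2 and without si-CN replicate 1 (log2 fold change 0.09). FKBP4, the FKBP52 partner of steroid receptors, was at 216, 211 and 209.8 CPM in si-CN and 204, 199 and 199.6 in si-N6AMT1. It was lower in each si-N6AMT1 library (log2 fold change -0.08, SE 0.024, FDR 0.0180), and the call was lost without si-N6AMT1 replicate 2 or 3, without si-CN replicate 1 (log2 fold changes -0.07 to -0.09 with 1 library left out) and under DESeq2.

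The other three cochaperones were not called. STIP1 (HOP), which passes clients from HSP70 to HSP90, was at 343, 346 and 339 CPM in si-CN and 355, 328 and 346 in si-N6AMT1 (log2 fold change -0.00, SE 0.026, FDR 0.995). CDC37, which brings kinases to HSP90, had a log2 fold change of 0.05 (FDR 0.164) and PTGES3 (p23), which closes the HSP90 cycle, one of 0.06 (FDR 0.0791), in both cases with groups that did not overlap. HSPB1, the small heat shock protein HSP27, was at 271, 278 and 259 CPM in si-CN and 274, 279 and 278 in si-N6AMT1, with overlap (log2 fold change 0.04, SE 0.025, FDR 0.280).

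CCT is a ring of 8 different subunits, each encoded by its own gene, and 1 of the 8, CCT2, was called. CCT2 was at 194, 195 and 197 CPM in si-CN and 184, 182 and 183 in si-N6AMT1. Each group varied by less than 2% and they were separate (log2 fold change -0.09, SE 0.023, FDR 0.00789). CCT2 stayed called whichever library was left out, its transcript shares no 31-base word with another gene, and among the alternatives that kept the threshold at no change the call was lost only after the GC correction (log2 fold change -0.06, FDR 0.0764). The ratio of CCT2 to TCP1, from counts divided by reference transcript length, was 0.989 ± 0.0333 in si-CN and 0.924 ± 0.0166 in si-N6AMT1 (SD, n = 3), with separate libraries.

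TCP1, the first subunit, was at 248, 243 and 236 CPM in si-CN and 241, 247 and 243 in si-N6AMT1 (log2 fold change 0.01, SE 0.024, FDR 0.843). CCT3 was at 347, 341 and 341 CPM in si-CN and 337, 334 and 339 in si-N6AMT1, which did not overlap (log2 fold change -0.03, SE 0.021, FDR 0.454). CCT4 was at 177, 168 and 163 CPM in si-CN and 171, 171 and 169 in si-N6AMT1 (log2 fold change 0.01, SE 0.028, FDR 0.821). These 3 subunits thus moved by less than 2% on average. CCT5 was at 539, 504 and 517 CPM in si-CN and 499.5, 512 and 525 in si-N6AMT1 (log2 fold change -0.02, SE 0.025, FDR 0.617). CCT6A was at 305, 299 and 297 CPM in si-CN and 303, 297 and 298 in si-N6AMT1 (log2 fold change -0.00, SE 0.022, FDR 0.929), and its pseudogenes CCT6P1 and CCT6P3 carried most of a pseudogene count that reached 9.83% of that of CCT6A. Both of these subunits overlapped between the groups. CCT7 was at 305, 294 and 298 CPM in si-CN and 293, 299.7 and 301 in si-N6AMT1 (log2 fold change -0.00, SE 0.023, FDR 0.927). CCT8 was at 402, 394 and 404 CPM in si-CN and 396, 409 and 420.0 in si-N6AMT1 (log2 fold change 0.03, SE 0.024, FDR 0.455). The confidence intervals of the 7 subunits other than CCT2 ran from -0.07 to 0.08 on the log2 scale.

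**Figure D4:**
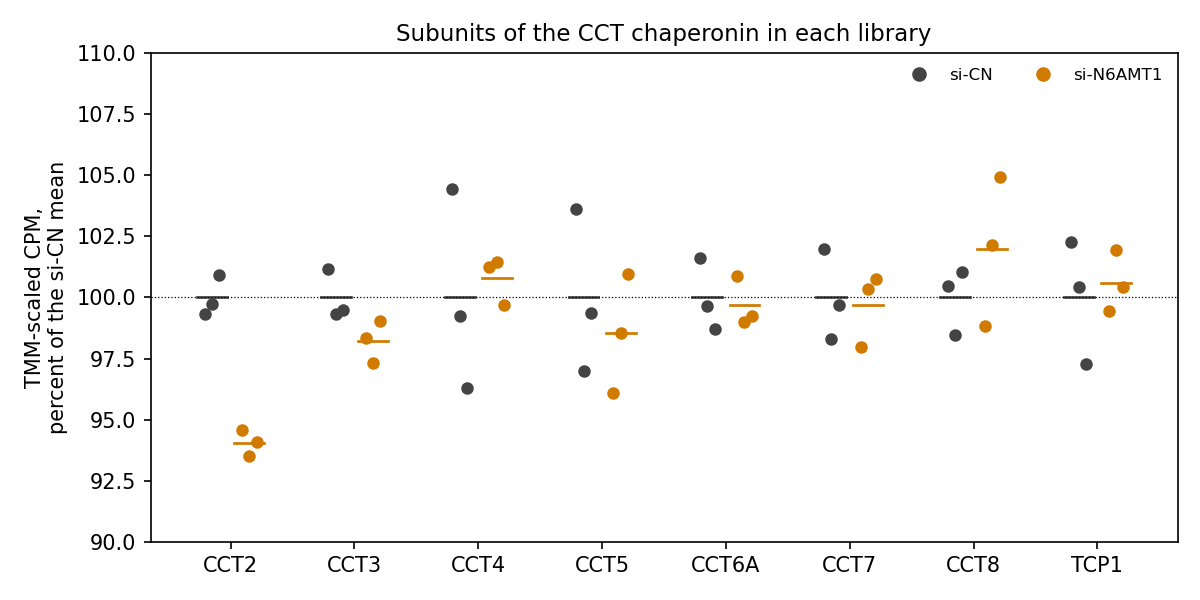
TMM-scaled CPM of the 8 CCT subunit genes in each library as a percentage of the si-CN mean (points), with group means (short lines), n = 3 per group; the vertical axis runs from 90% to 110%. CCT2 (182 to 184 CPM in si-N6AMT1 against 194 to 197 in si-CN) is the subunit whose groups stand well apart.

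Neither heat shock factor was called by edgeR (0 of 2 by DESeq2 and by limma-voom, and 0 at an unadjusted edgeR p under 0.05). HSF1, the main activator of the heat shock response, was at 76.7, 72.2 and 73.9 CPM in si-CN and 76.0, 76.4 and 77.6 in si-N6AMT1 (log2 fold change 0.05, SE 0.033, FDR 0.368). HSF2, its partner in development and stress, was at 32.1, 33.5 and 35.7 CPM in si-CN and 32.8, 31.4 and 32.6 in si-N6AMT1 (log2 fold change -0.07, SE 0.048, FDR 0.389). Both pairs of groups overlapped. HSF1 activity depends on protein state as well, which RNA-seq does not measure.

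A list of 24 genes known to be induced by heat shock was set beside these values. It holds 16 of the 36 members, of which 7 were called higher and 2 lower (DNAJB4 and FKBP4), with a median log2 fold change of 0.07. The other 20 members had 2 called higher and 4 lower, with a median of 0.00. Of all genes tested, 9.78% were called higher and 11.5% lower. Among the tested list genes that are not members, UBB, which encodes polyubiquitin, was higher (log2 fold change 0.12, SE 0.022, FDR 3.00e-04), as was SERPINH1, the collagen chaperone HSP47 (log2 fold change 0.14, SE 0.025, FDR 3.18e-04). HSPA4L, an HSP110 gene, was lower (log2 fold change -0.30, SE 0.051, FDR 1.46e-04). HSPA6, also on the list, is silent in most unstressed cells and was too low to test at under 1 CPM in every library.

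Summed over roles, the HSP60 and HSP10 pair was at 397.5 to 419 CPM in si-CN and 431 to 455 in si-N6AMT1. The 5 J-domain genes summed to 615 to 626 and 648 to 659 CPM, and the 6 HSP70 and HSP110 genes to 1801 to 1824 and 1868 to 1875. The sums of these 3 roles did not overlap between the groups. BAG and ST13 genes together were lower, at 433 to 442 CPM in si-CN and 413 to 431 in si-N6AMT1, while the sums of HSP90 genes (2908 to 3006 and 2957 to 3037) and of CCT genes (2437 to 2515 and 2424 to 2479) overlapped. As sums follow the most abundant genes, they are given as a description.

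Levels of different genes were compared per transcript length, in TPM (counts divided by transcript length and scaled to the same total in each library) in si-CN. HSP90AA1 was highest at 1222 ± 21.0 TPM (SD, n = 3), followed by HSP90AB1 at 916 ± 11.6, HSPB1 at 771 ± 26.7 and HSPA8 at 678 ± 2.22. These 4 were separated by more than their spread. The CCT subunits, which occupy 1 place each in the ring, ranged from 158 ± 4.71 TPM for CCT4 to 480.3 ± 7.61 for CCT8. CCT2 (226 ± 4.31), HSPA9 (226 ± 1.60) and TCP1 (229 ± 3.86) did not differ beyond their spread in this order. At the low end were HSF2 (28.9 ± 1.85), DNAJB4 (24.1 ± 2.52) and BAG2 (9.80 ± 0.109). Lengths were those of 1 reference transcript per gene. With the longest annotated transcript, HSPA9 came to 169 TPM, DNAJB6 to 60.0 in place of 152, HSPB1 to 523 and HSPD1 to 202 in place of 350, so the order among neighbours depends on the transcript chosen.

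**Figure D5:**
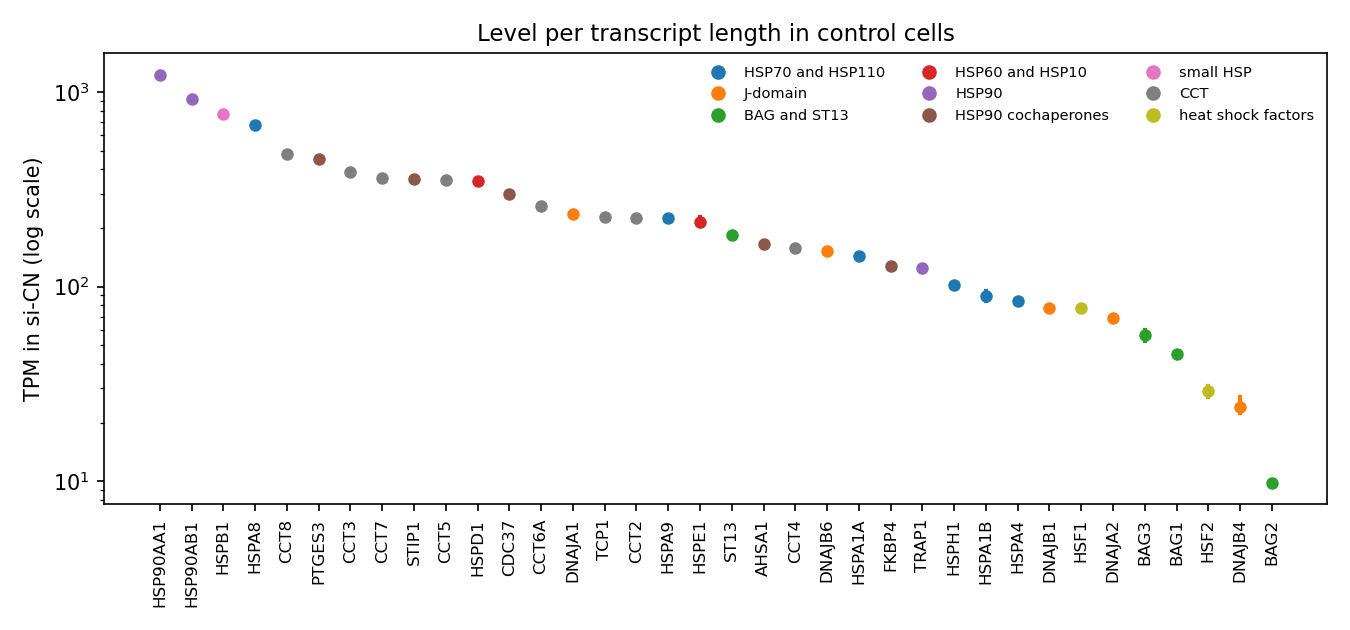
Level of each chaperone gene in the 3 si-CN libraries in TPM on a log scale, from counts divided by the length of a reference transcript; points are means, bars the range over libraries (often smaller than the point), and colours the role. Levels run from 1222 TPM for HSP90AA1 to 9.80 for BAG2.

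Other chaperone genes outside the 36 numbered 110 in 8 lists, of which 99 were tested, and 13 were called higher (13.1%) and 14 lower (14.1%), near the 9.78% and 11.5% of all genes tested. The median log2 fold change of the 99 was 0.01. Among 14 other HSP70 genes and exchange factors, 4 were lower and none higher by edgeR (0 by DESeq2 and by limma-voom, and 1 at an unadjusted edgeR p under 0.05). Besides HSPA4L, the lower genes were HSPA13, BAG4 and BAG5, of which HSPA13 lost its call after the GC correction, BAG5 under DESeq2, and BAG4 under both and without replicate 2 of either group. The 28 other J-domain genes had 4 higher and 3 lower, led by DNAJC15 (log2 fold change 0.43, SE 0.143, FDR 0.0353), whose libraries overlapped between the groups, and DNAJC27 (log2 fold change -0.42, SE 0.108, FDR 0.00615). Of 20 further genes of the HSP90 cycle, 3 were higher, led by TTC4 (log2 fold change 0.22, SE 0.058, FDR 0.00779), and 2 were lower, led by FKBP5 (log2 fold change -0.18, SE 0.041, FDR 0.00250), a close relative of FKBP4 and a known target of steroid receptors. The DNAJC15 call was lost under DESeq2 and without replicate 2 or 3 of either group (log2 fold changes 0.28 to 0.57 over all alternatives), that of TTC4 under DESeq2 and without si-N6AMT1 replicate 1 or si-CN replicate 3 (0.18 to 0.28), and that of DNAJC27 under DESeq2.

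Prefoldin hands unfolded actin and tubulin to CCT. Of 12 genes for prefoldin and other CCT cofactors, 2 were higher and 3 lower. PFDN2, a prefoldin subunit, was at 77.1, 77.4 and 78.6 CPM in si-CN and 86.9, 86.2 and 86.3 in si-N6AMT1 (log2 fold change 0.15, SE 0.030, FDR 5.66e-04), and the prefoldin-like URI1 was at 66.8, 63.8 and 67.2 and 54.3, 53.3 and 55.4 (log2 fold change -0.28, SE 0.036, FDR 3.87e-06). Both had separate groups. Of the 5 tubulin folding cofactors, TBCE was higher (log2 fold change 0.13, SE 0.046, FDR 0.0461), a call lost under DESeq2, under limma-voom and without any 1 library other than si-N6AMT1 replicate 1 (log2 fold changes 0.08 to 0.18 over all alternatives). Of 2 tested small heat shock genes, HSPB8, the partner of BAG3, was lower, from 35.0, 39.7 and 36.1 CPM to 28.8, 29.2 and 27.7 (log2 fold change -0.37, SE 0.051, FDR 9.79e-06).

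Among 14 genes listed for mitochondrial protein quality control, 3 were higher and 1 lower. SPG7, a subunit of an inner membrane protease, rose from 79.4, 80.7 and 78.3 CPM to 92.2, 89.8 and 91.9 (log2 fold change 0.20, SE 0.030, FDR 3.15e-05). OMA1, a protease that responds to membrane stress, had the highest log2 fold change (log2 fold change 0.31, SE 0.106, FDR 0.0416) at a low level, and YME1L1, another protease, was the gene that fell (log2 fold change -0.11, SE 0.033, FDR 0.0221). OMA1 lost its call under DESeq2, under limma-voom and without si-N6AMT1 replicate 3 or si-CN replicate 1 or 2 (log2 fold changes 0.18 to 0.39 over all alternatives), and YME1L1 lost it under DESeq2, without si-N6AMT1 replicate 1 or si-CN replicate 1 or 3 and after the GC correction (-0.13 to -0.07). None of the 4 other genes listed for heat shock factors and their binding proteins was called by edgeR (0 by DESeq2 and by limma-voom, and 1, HSF2BP, at an unadjusted edgeR p under 0.05).

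The 3′ UTR words TTCACAT and TCACATA were linked to lower expression in an earlier look at these same fold changes, so their presence is a description here. They occurred in 6 of the 36 members (16.7%), against 22.5% of 13150 tested genes with a 3′ UTR. The median 3′ UTR was 577 bases in members and 1341 in those genes, so the 2 shares are not matched for length. A word was present in 1 of the 9 genes called higher (DNAJA1) and in 4 of the 21 not called. Of the 6 genes called lower only DNAJB4 held them, with 2 sites on GRCh37, at chr1:78482927-78482949 and chr1:78483414-78483437 on the plus strand, and HSPA9 held none in 2281 bases. Median 3′ UTRs were 260 bases in the genes called higher, 2084 in those called lower and 547 in those not called. The counts by call are thus not matched for length either. The DNAJB4 sites are shown with the words in capitals.
DNAJB4 site 1: tttactttTTCACATgtatagat
DNAJB4 site 2: ctggacatTTCACATAaatagact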

How the data were processed

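The 6 RNA-seq libraries, 3 si-N6AMT1 and 3 si-CN, were grouped by their sample labels. The authors trimmed reads with Trim Galore, ran kallisto v0.46.0 on GENCODE transcripts (hg19), summed its estimated counts per gene and deposited these estimated (expected) counts in whole numbers without normalization. All 6 columns were matched to samples by name. The main test used edgeR v4.0.16 under R v4.3.3. Its expression filter kept genes with a minimum count of 10, TMM set the scaling, and the quasi-likelihood test ran over all 6 libraries with no covariate. FDR stands for the Benjamini-Hochberg adjusted p among the 17320 tested genes. The labels do not say that replicates came from separate cultures, so p-values measure the spread between these libraries, which differed by more than counting noise (chi-square per degree of freedom 1.37 to 1.77 within groups). TPM used the length of 1 GENCODE v44 reference transcript per gene on GRCh37. The procedure was tested on simulated counts.

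The named genes were every called member, both heat shock factors, all CCT subunits, the member with the smallest p in each role, and in other lists the called gene with the largest change in each direction. The members and lists were chosen with earlier results of these data known. Alternatives were RLE scaling, no filter, DESeq2 v1.42.0, limma-voom (limma v3.58.1), library sizes without the mitochondrial genome, the replicate number as a block, each library left out, and the longest transcript for TPM. A GC correction, pseudogene counts added to members, HSPA1A and HSPA1B summed, and a tested fold change of 1.1 were chosen after seeing the data. Shared 31-base words and sequence motifs were counted in Python v3.11.15. Values of some list and marker genes are not reported here.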

Additional observations from a re-analysis of the deposited data

How the results depend on the processing

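The number of members called higher (9) stayed between 6 and 9 with 1 library left out, was 10 under limma-voom and after the GC correction, 5 under DESeq2 and 1 against a fold change of 1.1, and the number called lower (6) was 3 to 5 with 1 library left out, 3 under DESeq2 and after the GC correction, and 1 against a fold change of 1.1. Other chaperone genes called higher (13) fell to 4 to 10 with 1 library left out and to 2 under DESeq2, and those called lower (14) fell to 7 under DESeq2. The median member log2 fold change (0.020) was 0.013 to 0.032 with 1 library left out. Same-numbered libraries of the groups did not deviate together (correlations -0.12, -0.087 and 0.0042 over 10103 genes). These deviations were centred within groups of 3 libraries and carry counting noise. The check thus cannot show whether the replicate numbers pair the libraries. With the replicate block, 7 members were called higher and 6 lower, and HSPA4 and DNAJB1 lost their calls. No called member changed direction under any alternative. Of the 21 members not called, 10 changed direction, all near 0. With 1 library left out, the log2 fold change ran from -0.039 to 0.0013 for DNAJA2, -0.0068 to 0.032 for HSP90AA1, -0.024 to 0.031 for STIP1, -0.0094 to 0.025 for TCP1, -0.014 to 0.044 for CCT4, -0.043 to 0.0048 for CCT5, -0.012 to 0.0073 for CCT6A and -0.017 to 0.0096 for CCT7. After the GC correction it was 0.014 for DNAJA2, -0.028 for HSPB1, 0.00081 for CCT5, 0.025 for CCT6A and -0.016 for HSF1, and without the mitochondrial genome in library sizes it was 0.000901 for STIP1. The cause of these changes was not tested.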
